A study of Mus musculus with 36 samples.

Results

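The expression and promoter accessibility of 8 imprinted genes, out of 24411 genes in the expression tables, were described in mesenchymal stem cells (MSCs) of different tissue origin: Dlk1, Meg3, Rian, Mirg and Dio3 of the Dlk1-Dio3 locus, and H19, Peg3 and Mest of other domains. They were listed by symbol and selected on their RNA levels in these libraries, with nearby peaks as support, so their levels are given as a description, without a test. MSCs had been grown from femoral bone marrow (fBM-MSCs), vertebral bone marrow (vBM-MSCs), adipose tissue (A-MSCs) and lung (P-MSCs) of the same 3 C57BL6/J mice, 8 weeks old, with no treatment or genetic change, in MesenCult medium and used within 3 passages. Marrow was released by crushing the bone, whereas adipose tissue and lung were minced and digested with collagenase. RNA-seq (Smart-seq2, without strand information) comprised 2 libraries for the vBM-MSCs, whose replicate 3 is not analysed here, and 3 for each other tissue, with 19569650 to 40517739 expected counts each. ATAC-seq, which marks open chromatin by Tn5 insertion, comprised 1 peak list per tissue, called on pooled reads, so accessibility had no replicate.

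Imprinted genes are transcribed mainly from either the maternal or the paternal copy, according to DNA methylation set in the germ line at control regions. In the Dlk1-Dio3 locus the paternal copy expresses protein-coding genes (Dlk1, Rtl1 and Dio3), and the maternal copy expresses long non-coding RNAs (Meg3, Rian and Mirg) that host clusters of small nucleolar RNAs and microRNAs. Dlk1, also called Pref-1, is a transmembrane protein known for holding back fat cell differentiation, and Dio3 encodes the deiodinase that inactivates thyroid hormone. H19 is the maternal non-coding RNA next to Igf2, Peg3 a paternally expressed zinc finger protein, and Mest a paternally expressed gene of the hydrolase family. Inbred mice give no sequence difference between the parental copies, so none of the values below tells from which copy a transcript came.

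The promoters of Meg3, Dio3 and Peg3 are shown because the 8 genes had peaks of the study's threshold, a −log10 q of at least 7, at these promoters and at no other within 1 kb of a start site. Each runs over the 250 bases before the annotated start site, 5′ to 3′ on the strand of the gene, taken from RefSeq on GRCm38.p6, the patched form of mm10. Capitals mark matches on either strand to the GC box (GGGCGG), the TATA box (TATAAA), the CCAAT box (CCAAT), the cyclic AMP response element or CRE (TGACGTCA), a YY1 motif (AANATGGC), an AP-1 motif (TGANTCA) or the CTCF motif, N being any base. The fourth sequence, of 151 bases, surrounds the strongest summit of the Dlk1-Dio3 locus over the 4 lists, which lay 467 bases beyond the 3′ end of Mirg.
Meg3 promoter, chr12:109540746-109540995, plus strand: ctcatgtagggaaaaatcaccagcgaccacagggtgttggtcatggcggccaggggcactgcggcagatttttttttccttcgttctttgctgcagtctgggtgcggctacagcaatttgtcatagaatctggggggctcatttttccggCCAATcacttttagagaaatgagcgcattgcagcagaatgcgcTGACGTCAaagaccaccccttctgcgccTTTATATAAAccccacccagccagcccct
Dio3 promoter, chr12:110278980-110279229, plus strand: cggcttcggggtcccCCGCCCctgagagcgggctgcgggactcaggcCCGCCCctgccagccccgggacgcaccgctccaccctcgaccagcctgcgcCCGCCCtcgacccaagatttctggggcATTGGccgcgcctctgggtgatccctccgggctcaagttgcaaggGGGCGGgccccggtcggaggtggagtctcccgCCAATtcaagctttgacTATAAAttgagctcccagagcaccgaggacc
Peg3 promoter, chr7:6730420-6730669, minus strand: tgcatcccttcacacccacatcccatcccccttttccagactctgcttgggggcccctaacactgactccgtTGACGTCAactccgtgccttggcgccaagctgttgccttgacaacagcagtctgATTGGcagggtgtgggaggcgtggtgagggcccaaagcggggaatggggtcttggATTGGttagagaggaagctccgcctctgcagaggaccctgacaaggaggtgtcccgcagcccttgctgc
Summit 3′ of Mirg, chr12:109749850-109750000, plus strand: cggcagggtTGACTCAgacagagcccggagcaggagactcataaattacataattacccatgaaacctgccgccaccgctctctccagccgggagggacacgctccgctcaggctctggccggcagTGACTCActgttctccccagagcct

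In the Meg3 promoter, a CRE began at position -57 from the start site, a CCAAT box at -100, and TATA matches on both strands at -29 and -25, which overlap each other in 1 run of capitals. The CRE letters occurred in 1.83% of the 31387 RefSeq promoters of chromosomes 1 to 19, each counted over 300 bases (250 before to 50 after the start), and the TATA letters in 13.6%. The Dio3 promoter held 4 GC boxes, between positions -235 and -80, a TATA box at -31 and CCAAT boxes at -125 and -48. GC boxes occurred in 36.0% of all promoters and CCAAT boxes in 37.3%. It was the member promoter richest in CpG, the dinucleotide that carries DNA methylation, with 25 CpG in 300 bases against a median of 7 over all promoters. The Peg3 promoter held a CRE at -178 and CCAAT boxes on the opposite strand at -124 and -69. Both the Meg3 and the Peg3 window had 13 CpG. The sequence 3′ of Mirg held 2 AP-1 matches, letters that were searched after the sequence had been read and that occurred in 21.0% to 30.0% of all summit windows of 151 bases in the 4 lists. The YY1 letters, in 6.03% of promoters, and the CTCF motif, in 2.47%, were in none of the 4 sequences. The 151 bases around the strongest Peg3 summit, inside the gene and not printed here, held 1 YY1 match and 1 GC box. A sequence was given for 7 of the 8 genes, H19 being the exception. These matches describe letters and not bound sites.

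Dio3 was detected almost exclusively in vBM-MSCs. Its level in TPM, transcripts scaled by length and library, which is the unit of all levels below, was 25.72 and 11.57 in the 2 vBM-MSC libraries, 0.23, 0 and 0.07 in the A-MSCs, and 0 in all 3 fBM-MSC and all 3 P-MSC libraries. The vBM-MSCs averaged 18.6 ± 10 (SD, n = 2) and the A-MSCs 0.10 ± 0.12 (SD, n = 3). The vBM-MSC libraries held 849 and 456 expected counts, the A-MSC libraries 8, 0 and 3, and the others none. Against a floor of 3 counts over the fBM-MSC libraries together, Dio3 was at least 585-fold higher in vBM-MSCs than in fBM-MSCs, and at least 700-fold higher than in P-MSCs. Without vBM-MSC replicate 1 these bounds were 376-fold and 450-fold. In bulk RNA, fewer cells of a type and less RNA per cell cannot be told apart. Dio3os, the antisense RNA that starts beside Dio3, followed the same pattern at a lower level, with 1.24 and 0.53 in vBM-MSCs and 0 in every other library. Its 39 counts make it at least 17.5-fold higher in vBM-MSCs than in fBM-MSCs, and at least 10.7-fold without vBM-MSC replicate 1. Reads of Dio3 and Dio3os cannot be assigned to a strand in these libraries, although the annotated transcripts do not overlap.

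Dlk1 was also highest in vBM-MSCs, at 1.88 and 4.44, and the P-MSCs followed at 1.36, 0.93 and 1.2. The fBM-MSCs had 0.35, 0.24 and 0.25 and the A-MSCs 0.30, 0.64 and 0.03. Both vBM-MSC libraries lay above all P-MSC libraries, and these above all A-MSC and fBM-MSC libraries, whereas the last 2 tissues overlapped. On the log2 scale of the edgeR fit, Dlk1 was higher in vBM-MSCs than in fBM-MSCs by 3.47 ± 0.81 (SE) and lower in A-MSCs than in P-MSCs by a difference of -1.66 ± 0.72 (SE). The first was 2.85 without vBM-MSC replicate 2, and the second was -2.69 without A-MSC replicate 2 and -1.12 without A-MSC replicate 3. H19 was the third gene with this top rank, with 0.70 and 1.30 in vBM-MSCs, 0, 0.22 and 0.45 in fBM-MSCs, 0.09, 0 and 0 in A-MSCs and 0 in all P-MSCs. H19 therefore had its counts almost wholly in the marrow libraries, with 94 in vBM-MSCs, 34 in fBM-MSCs and 4 in A-MSCs, and was at least 50.4-fold higher in vBM-MSCs than in P-MSCs, or 34.1-fold without vBM-MSC replicate 2. Every vBM-MSC library exceeded every other library for 3 of the 8 genes (Dlk1, Dio3 and H19), against 7.35% of the 12509 genes that passed the filter on low counts. Since the 8 genes were selected with these values known, nothing is read from that contrast. Dlk1 and Dio3 passed this filter, which required 2 or more libraries with a CPM of 1 or more, and H19 did not.

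The 3 maternal non-coding RNAs of the Dlk1-Dio3 locus shared their lowest level in fBM-MSCs. Meg3, which lies next to the methylated control region of the locus, had 0.69, 0.52 and 0.27 there, against 3.70, 3.08 and 3.29 in P-MSCs, 2.36 and 3.75 in vBM-MSCs and 2.22, 1.66 and 1.54 in A-MSCs. Rian, the host of the small nucleolar RNA cluster, was the most abundant of the 3 per length, with 34.98 and 24.58 in vBM-MSCs, 26.46, 21.66 and 19.90 in A-MSCs, 13.77, 17.11 and 14.82 in P-MSCs and 9.17, 6.35 and 1.92 in fBM-MSCs. Mirg, the microRNA host further downstream, was near the limit of detection, at 0.40, 0.18 and 0.28 in P-MSCs, 0.35, 0.38 and 0.34 in A-MSCs, 0.70 and 0.24 in the vBM-MSC pair and 0 in each fBM-MSC library. For all 3 RNAs, each fBM-MSC library was below each library of the other tissues. That held for 9.09% of the genes that passed the filter, which Meg3 and Rian passed and Mirg did not, and here too the genes had been selected with the values known.

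The size of the gap between vBM-MSCs and fBM-MSCs was similar for Meg3 and Rian. Meg3 was higher in vBM-MSCs than in fBM-MSCs by 2.58 ± 0.51 (SE) on the log2 scale, and Rian by 2.35 ± 0.45 (SE). For Mirg, with 21 counts over the vBM-MSC libraries and 0 over the fBM-MSC libraries, the difference was at least 9.41-fold, and it was at least 7.57-fold for A-MSCs and 6.40-fold for P-MSCs against fBM-MSCs. The first bound was 4.94-fold without vBM-MSC replicate 1 and 14.7-fold without vBM-MSC replicate 2. The order of the other tissues differed among the 3 RNAs. Mean Meg3 was highest in P-MSCs (3.36 ± 0.32, SD, n = 3), whose range overlapped that of vBM-MSCs (3.06 ± 0.98, SD, n = 2). Mean Rian was highest in vBM-MSCs (29.8 ± 7.35, SD, n = 2), overlapping A-MSCs (22.7 ± 3.40, SD, n = 3), and A-MSCs lay above P-MSCs (15.2 ± 1.71, SD, n = 3) without overlap. As a result, the ratio of Rian to Meg3 within a library was 3.72 to 5.56 in P-MSCs and higher in all other libraries, at 6.55 to 14.8 in vBM-MSCs, 7.11 to 13.3 in fBM-MSCs and 11.9 to 13 in A-MSCs. All 58 microRNA genes annotated between Dlk1 and Dio3 were listed at 0 counts in all libraries. According to the paper, Smart-seq2 reads polyadenylated RNA only, so these counts do not tell whether the microRNAs were present. Rtl1, the paternal retrotransposon-derived gene transcribed against the maternal RNAs, was at 0 to 0.29 TPM and did not pass the filter.

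Peg3 separated the tissues in another way. It was highest in P-MSCs, at 11.99, 13.91 and 14.25, against 1.2, 2.45 and 1.02 in A-MSCs, 0.36 and 0.90 in vBM-MSCs and 0.08, 0.62 and 0.28 in fBM-MSCs. All P-MSC libraries lay above all others, a position that 20.1% of the genes that passed the filter held, and the A-MSCs lay above the vBM-MSCs, which overlapped the fBM-MSCs. Peg3 was lower in A-MSCs than in P-MSCs, with a log2 difference of -2.92 ± 0.49 (SE), and the difference of both marrow sites from the other tissues was -3.31 ± 0.41 (SE). Usp29, which starts 164 bases from Peg3 on the opposite strand, was nearly silent, at 0.02, 0.03 and 0.02 in P-MSCs and 0 elsewhere. Zim1, the maternally expressed neighbour, was at 0.10 to 0.33 in P-MSCs, 0 to 0.14 in A-MSCs, 0.11 in 1 fBM-MSC library and 0 in the other marrow libraries, and did not pass the filter, whereas Zim2 and Zim3 were listed at 0 throughout.

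Mest was detected in all libraries, with 3.32 and 12.04 in vBM-MSCs, 4.69, 4.20 and 5.08 in P-MSCs, 2.09, 2.64 and 2.59 in A-MSCs and 0.90, 1.09 and 2.13 in fBM-MSCs. The vBM-MSCs and P-MSCs overlapped, as did the A-MSCs and fBM-MSCs, while all P-MSC libraries were above all A-MSC libraries. The log2 difference between vBM-MSCs and fBM-MSCs was 2.39 ± 0.47 (SE), and it was 2.99 without vBM-MSC replicate 1 and 1.32 without vBM-MSC replicate 2. Over both marrow sites against adipose tissue and lung, the log2 difference was only -0.06 ± 0.31 (SE). Mest shares 913 bases of its 3′ end with Copg2 on the opposite strand, and without strand information the reads of that stretch cannot be told apart. Copg2 itself, a coat protein gene, was at 21.21, 26.18 and 21.84 in fBM-MSCs and at 9.44 to 10.90 in A-MSCs and P-MSCs, so its order of tissues differed from that of Mest.

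**Figure D1:**
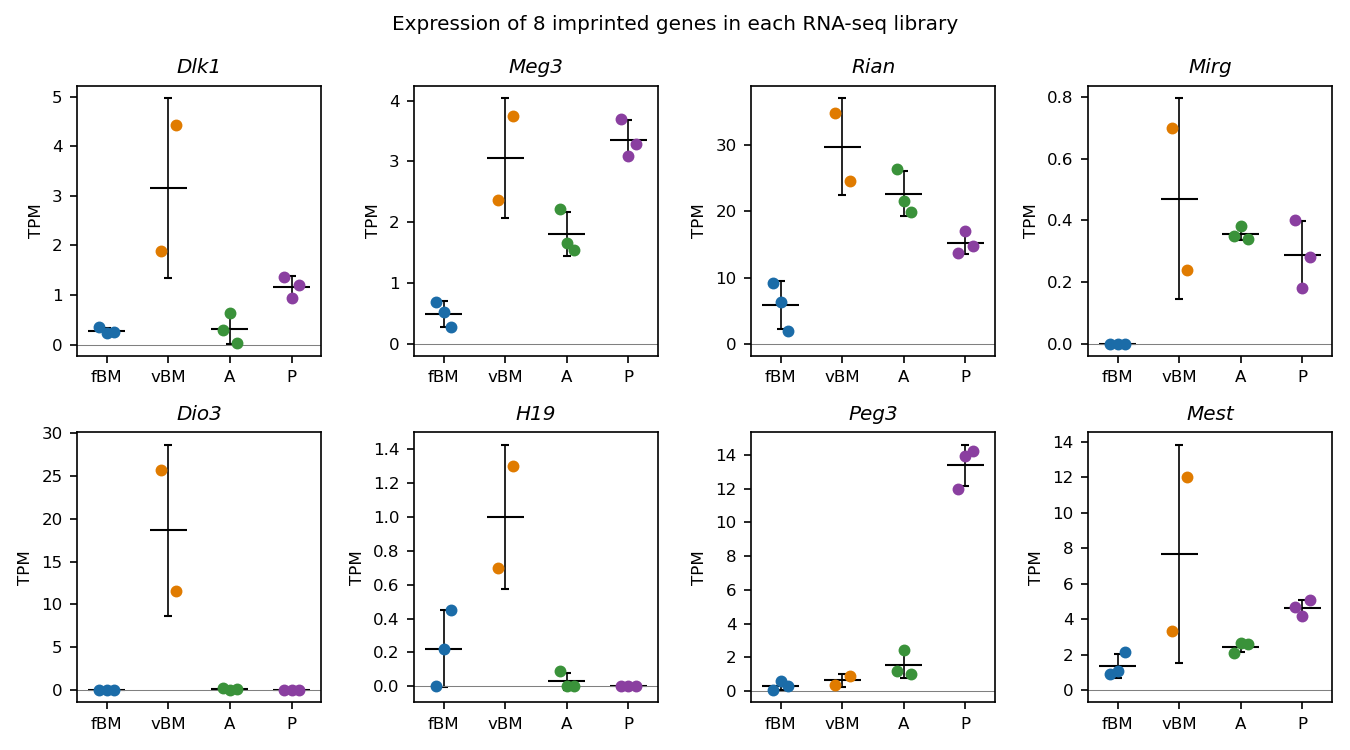
Level of the 8 genes in TPM (y axis, linear, a separate scale for each gene) in each RNA-seq library, by tissue (x axis), with each point a library, the horizontal line the mean and the bar the SD over 2 or 3 libraries. Dio3 stands at 25.72 and 11.57 in vBM-MSCs and at 0.23 or less elsewhere, Peg3 at 11.99 to 14.25 in P-MSCs, and Meg3, Rian and Mirg are lowest in the fBM-MSCs.

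The 2 vBM-MSC libraries did not share one direction of difference. Replicate 2 was higher than replicate 1 for Dlk1, Meg3, H19, Peg3 and Mest, whereas replicate 1 was higher for Rian, Mirg and Dio3. Replicate 1 had 30047590 expected counts and replicate 2 had 35831719, and an SD over 2 libraries is poorly known. The difference of Peg3 between vBM-MSCs and fBM-MSCs was 0.84 ± 0.58 (SE) on the log2 scale. It was 0.47 or 1.60 when fBM-MSC replicate 1 or 2 was left out, and 1.28 or 0.14 when vBM-MSC replicate 1 or 2 was left out.

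Most promoters of these genes lacked a strong accessible site. Within 1 kb of an annotated start site, a summit of −log10 q of at least 7 was present for 3 of the 8 genes in vBM-MSCs (Meg3, Dio3 and Peg3), for 2 each in A-MSCs and P-MSCs (Meg3 and Peg3) and for 1 in fBM-MSCs (Peg3). Over the 11518 genes that passed the filter and had a curated start site, the share with such a summit was 89.7% in A-MSCs, 89.0% in vBM-MSCs, 88.8% in P-MSCs and 87.1% in fBM-MSCs. Mirg and H19, which are among the 8 genes, did not pass that filter. Summit strength is the authors' fold enrichment over the genome-wide background, which moves in steps of 0.368 in all 4 lists. At the Dio3 promoter, vBM-MSCs had 1 summit, 188 bases before the start site, with a fold enrichment of 6.25 and a −log10 q of 9.02, and no other tissue had a listed summit there. A promoter summit in vBM-MSCs alone was found for 0.573% of the genes compared. Since the 8 genes were selected with their values known and nearby peaks as support, nothing is read from that share. In vBM-MSCs both a summit at the Dio3 promoter and the Dio3 transcript were detected, the transcript at trace level in A-MSCs too.

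The Meg3 promoter was accessible in the 3 tissues with the higher Meg3 level. Its fold enrichment was 11 in A-MSCs, 7.36 in P-MSCs and 6.25 in vBM-MSCs, at summits 58 to 115 bases before the first start site, and no summit was listed in fBM-MSCs. This pattern, a summit in vBM-MSCs, A-MSCs and P-MSCs but not in fBM-MSCs, was shared by 2.12% of the genes compared. Here too nothing is read from the share, because of how the genes were selected. A further summit inside Meg3, 2065 bases from the start, had values of 12.9 in A-MSCs, 8.83 in P-MSCs and 7.73 in vBM-MSCs, and in fBM-MSCs it reached 3.68, under the threshold. The order of fold enrichment among the 3 tissues, highest in A-MSCs, was not the order of the Meg3 transcript, which was lowest of the 3 in A-MSCs. At the Peg3 start site itself, summits within 88 bases had a fold enrichment of 13.6 (P-MSCs), 12.9 (A-MSCs), 7.36 (vBM-MSCs) and 6.62 (fBM-MSCs). The highest summit within 1 kb, the value in the plot of promoter summits, gave another order, with 19.1 (fBM-MSCs), 18.4 (A-MSCs), 15.5 (vBM-MSCs) and 13.6 (P-MSCs), so the tissue with the highest Peg3 level had the lowest value there and the highest at the start site. The accessible stretch went on into the gene, where its strongest summit, 1739 bases from the start, had 53.7, 40.5, 41.9 and 33.8 in the order P-MSCs, A-MSCs, vBM-MSCs and fBM-MSCs. Peg3 thereby was among the 83.1% of genes with a promoter summit in all 4 tissues.

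For Dlk1, Rian, Mirg, H19 and Mest no promoter summit passed the threshold in any tissue. That held for 6.84% of the genes compared, all of which had passed the filter on low counts. Mirg and H19 had not passed it and are outside that comparison. Dlk1 had summits of 4.05 (−log10 q of 3.73 to 3.76) in fBM-MSCs, vBM-MSCs and P-MSCs, a value 3 steps of 0.368 above the lowest of any list, 2.94, and none in A-MSCs. Mest had summits of 4.05 to 4.41 in vBM-MSCs, A-MSCs and P-MSCs and none in fBM-MSCs. No summit was listed within 1 kb of the Rian, Mirg or H19 start. RefSeq start sites were used as annotated. With 1 pooled list per tissue, none of these differences in fold enrichment could be tested.

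**Figure D2:**
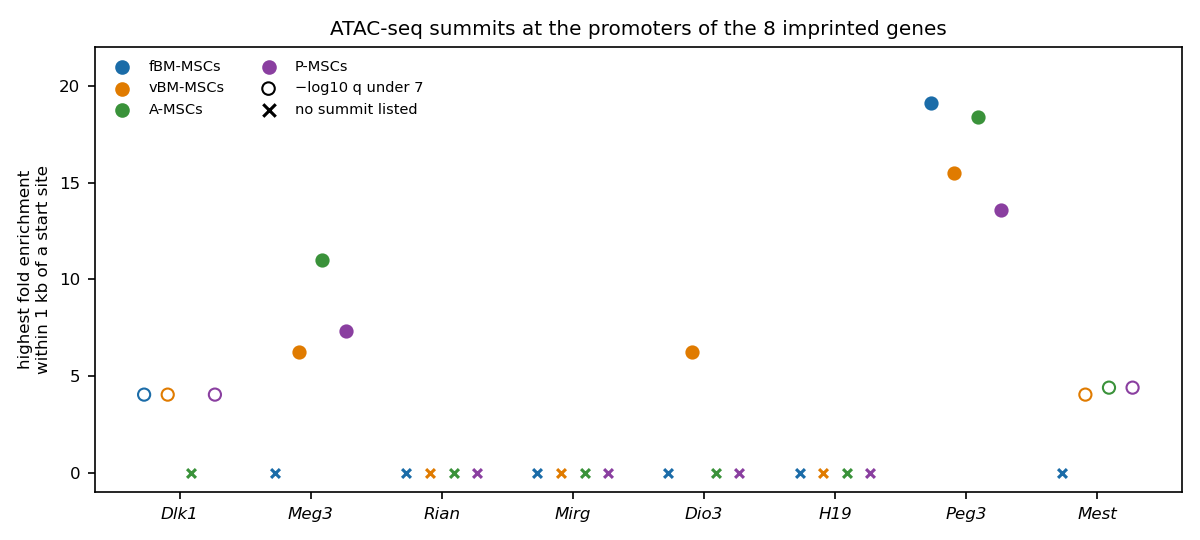
Highest fold enrichment of an ATAC-seq summit within 1 kb of an annotated start site (y axis, linear) for each of the 8 genes (x axis) in the 4 tissues (colours). Filled circles have a −log10 q of at least 7, open circles a lower one, and crosses at 0 mark that no summit was listed. Only Meg3, Dio3 and Peg3 have filled circles.

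From the first start of Dlk1 to the end of Dio3, chr12:109452823-110281097, the lists held 27 summits past the threshold for P-MSCs, 26 for A-MSCs, 24 for vBM-MSCs and 20 for fBM-MSCs. That was 32.6, 31.4, 29.0 and 24.1 summits per Mb, against 26.0, 29.0, 24.2 and 26.1 per Mb over chromosomes 1 to 19. Joined wherever they overlapped by at least 1 base, they formed 35 regions, of which 15 were past the threshold in all 4 tissues and 15 in a single tissue. The regions of a single tissue were 6 for P-MSCs, 5 for A-MSCs and 4 for vBM-MSCs, and fBM-MSCs had none of their own. Most of the regions, 26 of 35, lay in the gap of 530.0 kb between the end of Mirg and the start of Dio3, in which no other member lies. Between the end of Dlk1 and the last 1 kb before Meg3, the stretch that holds the germ line control region, no summit passed the threshold in any tissue.

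The strongest region, except in vBM-MSCs, was the one 3′ of Mirg whose sequence is printed above, with a fold enrichment of 47.8 in A-MSCs, 43.8 in P-MSCs, 31.6 in fBM-MSCs and 25 in vBM-MSCs. It was therefore open in fBM-MSCs, where no Mirg count was found. A region within Rian, 174.3 kb from the Dlk1 start, had 15.1, 11.4, 16.2 and 22.4 in the order fBM-MSCs, vBM-MSCs, A-MSCs and P-MSCs, which the following values keep. Among the 15 regions past the threshold in all 4 tissues, fBM-MSCs had the lowest fold enrichment in 8 and the highest in 2, vBM-MSCs the lowest in 3, A-MSCs in 1 and P-MSCs in 3. Over the 28732 such regions of chromosomes 1 to 19, fBM-MSCs were also the most frequent lowest tissue, in 41.4%, and were the highest in 13.5%. Examples of regions where fBM-MSCs were lowest lay at 670.3 kb (12.5, 32.4, 29.8 and 32.4), 613.8 kb (12.1, 25, 28.7 and 19.1) and 617.9 kb (6.25, 13.6, 17.7 and 9.93). In the opposite direction, fBM-MSCs had the highest value at 311.7 kb (22.4, 11.8, 14.3 and 10.3) and at a site 11309 bases before the Dlk1 start (14.7, 7.36, 5.52 and none listed in P-MSCs). The site further upstream of Dlk1, 34901 bases away, was strongest in P-MSCs (14.7, 18.4, 21.0 and 39.0). These regions were chosen after their values were seen.

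**Figure D3:**
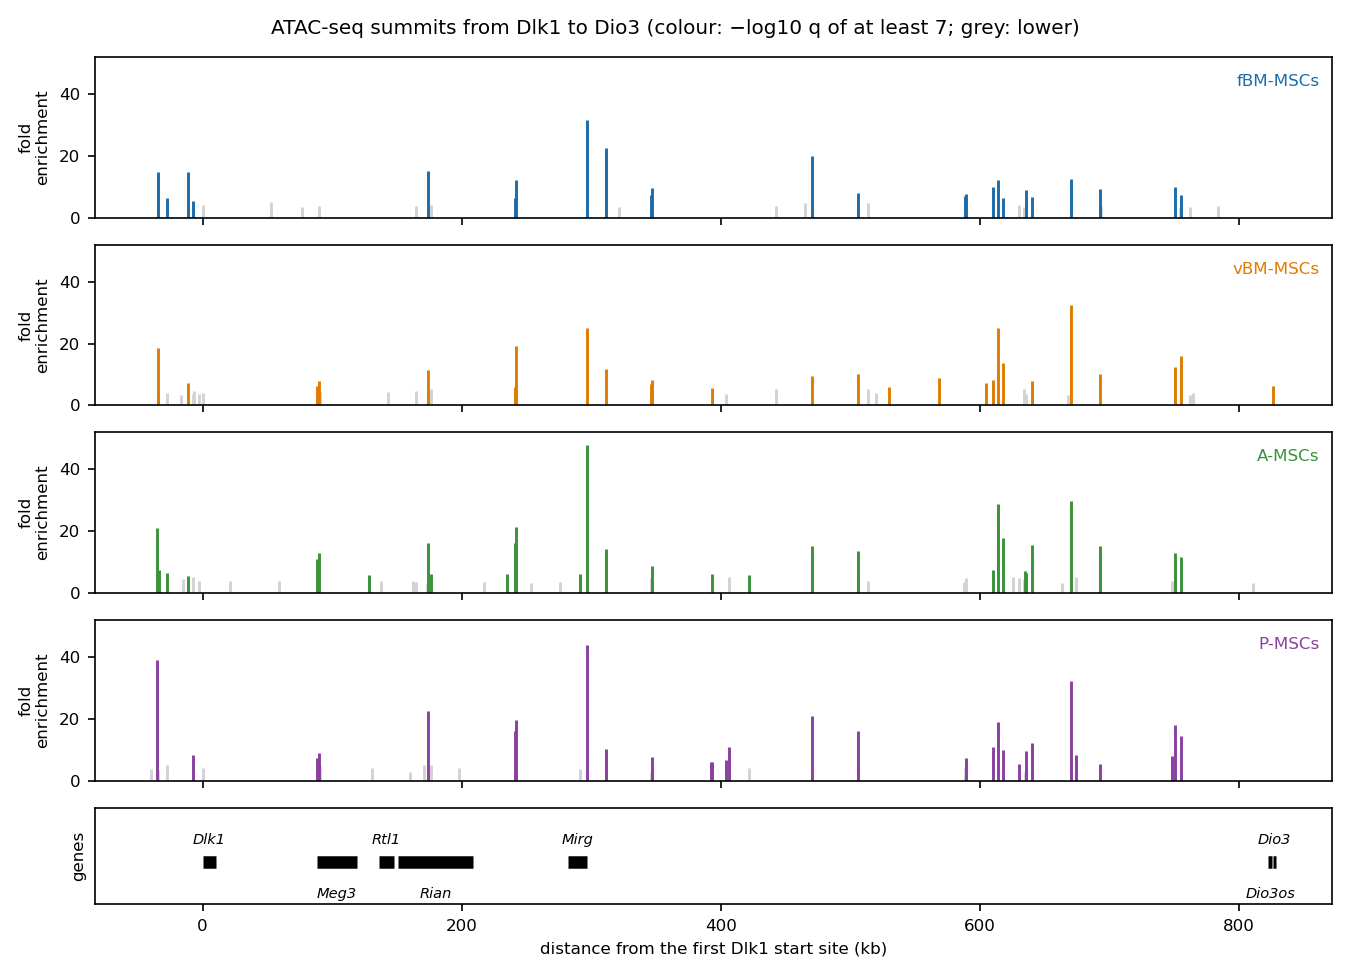
ATAC-seq summits from 50 kb before Dlk1 to Dio3, with distance from the first Dlk1 start in kb (x axis) and fold enrichment (y axis, linear, 1 panel per tissue), coloured lines for a −log10 q of at least 7 and grey lines for lower ones, and the annotated genes as black bars beneath. The line 3′ of Mirg reaches 47.8 in A-MSCs, and lines at Meg3 appear in vBM-MSCs, A-MSCs and P-MSCs, in colour, and at Dio3 in vBM-MSCs.

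To place the 8 genes among imprinted genes in general, a list of 75 other imprinted genes was examined, of which 74 were in the tables and 47 passed the filter. Of these 47, 37 differed among the 4 tissues (edgeR quasi-likelihood test, adjusted p under 0.05), against 60.6% of all genes tested, so that differences among tissues were common in all genes. Between the marrow sites together and the other tissues, 16 of the 47 were higher and 13 lower in bone marrow, against 24.8% and 22.4% of all genes tested. The median log2 difference of the 47 was 0.12, against 0.03 over all genes tested. Nnat, the neuronatin gene, was at 0.08 to 0.80 TPM in the marrow libraries, at 11.43, 17.15 and 15.78 in A-MSCs and at 2.05, 2.88 and 1.98 in P-MSCs, and was lower in bone marrow (log2 difference -4.08 ± 0.36 SE, edgeR adjusted p = 5.1e-06). Slc22a18, an organic cation transporter of the Kcnq1 domain, was at 15.73 to 25.53 in marrow and at 0.48 to 3.42 elsewhere (3.68 ± 0.33 SE, edgeR adjusted p = 5.34e-06). Htr2a, a serotonin receptor, was at 1.48 to 1.83 in marrow and at 9.06 to 12.67 elsewhere (-2.73 ± 0.15 SE, edgeR adjusted p = 1.7e-07). Grb10, an adaptor protein that restrains insulin and IGF signalling, was lower in marrow by a log2 difference of -1.30 ± 0.13 (SE, edgeR adjusted p = 1.48e-05), and Zrsr1, an intronless splicing factor gene inside Commd1, was higher by 2.5 ± 0.64 (SE, edgeR adjusted p = 0.0075), at 0.20 to 0.53 in marrow and 0.01 to 0.18 elsewhere.

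Between the 2 marrow sites, 9 of the 47 other imprinted genes differed, with 5 higher and 4 lower in vBM-MSCs, against 7.56% and 5.24% of all genes tested, and with a median log2 difference of 0.00. When only the libraries of the 2 sites were fitted, 3 of the 9 remained, while the calls over all genes went from 1601 of 12509 to 305 of 12051. On the TPM scale with limma, 9 were higher and 3 lower. Dcn, the matrix proteoglycan decorin, was at 5.11, 2.78 and 5.13 in fBM-MSCs and 25.82 and 90.43 in vBM-MSCs, a log2 difference of 3.63 ± 0.49 (SE, edgeR adjusted p = 0.00096). Atp10a, a phospholipid flippase, was at 0.55, 1.05 and 1.26 in fBM-MSCs and 7.40 and 3.85 in vBM-MSCs (2.53 ± 0.41 SE, edgeR adjusted p = 0.0027), and Grb10 was at 22.66 to 31.57 in fBM-MSCs and 75.09 and 70.23 in vBM-MSCs (1.32 ± 0.19 SE, edgeR adjusted p = 0.0014). Qpct, which forms pyroglutamate at peptide ends, was lower in vBM-MSCs (-1.47 ± 0.23 SE, edgeR adjusted p = 0.0026, and 0.053 with only the 2 sites). Asb4, an ankyrin repeat protein, was at 8.73, 19.59 and 32.16 in fBM-MSCs and at 0.45 and 5.05 in vBM-MSCs (-2.97 ± 0.80 SE, edgeR adjusted p = 0.032), a call that was lost in edgeR without vBM-MSC replicate 1 (adjusted p = 0.11), fBM-MSC replicate 2 (0.060) or fBM-MSC replicate 3 (0.064) and with only the 2 sites (0.16). Its log2 difference was -5.42 without vBM-MSC replicate 2 and -2.13 without vBM-MSC replicate 1. That of Dcn was 2.63 and 4.22 and that of Atp10a 2.98 and 1.86 with these libraries left out in the same order. Without vBM-MSC replicate 1 the number of calls was 5, and that over all genes 610 of 12443.

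Between the 2 non-marrow tissues, 19 of the 47 differed, 14 higher and 5 lower in A-MSCs, against 16.0% and 14.9% of all genes tested. On the TPM scale with limma the split was 11 higher and 10 lower, and the median difference of all genes was -0.16 there and -0.01 in the edgeR fit. Slc38a4, an amino acid transporter that is paternally expressed like Peg3, was at 11.99, 9.98 and 15.05 in P-MSCs and at 1.09, 0.75 and 0.09 in A-MSCs (-4.09 ± 0.72 SE, edgeR adjusted p = 0.0017), and at 0.18 or less in both marrow tissues. Nnat (2.90 ± 0.41 SE, edgeR adjusted p = 0.0005) and Dcn (2.79 ± 0.45 SE, edgeR adjusted p = 0.0011) were higher in A-MSCs. Gpr1, a chemerin receptor, was at 0.68, 0.68 and 2.23 in A-MSCs and 0 in P-MSCs, at least 45.7-fold higher (25.7-fold without A-MSC replicate 3), and its fitted fold is not given. Kcnq1ot1, the antisense non-coding RNA of the Kcnq1 domain, was higher in P-MSCs at 0.04 to 0.12 TPM (A-MSCs minus P-MSCs -2.86 ± 0.95 SE, edgeR adjusted p = 0.039), but the call was lost on the TPM scale with limma (adjusted p = 0.56) and in edgeR without any 1 of the P-MSC libraries or without A-MSC replicate 1 or 3 (adjusted p of 0.052 to 0.14). Its log2 difference ranged from -4.08 without A-MSC replicate 2 to -2.32 without P-MSC replicate 1. Of the neighbours listed for the members, Begain upstream of Dlk1 (0 to 0.96 TPM) and Cdkn1c, a CDK inhibitor of the Kcnq1 domain that lies next to that of H19 (0.09 to 1.32), did not pass the main edgeR test in any comparison. Over the 4 tissues, Begain was called with limma on log2(TPM + 1) and on log2(TPM + 0.1). For Begain in marrow against the other tissues, however, the log2 difference of 2.38 ± 0.93 (SE) had an edgeR adjusted p of 0.054, which was 0.0495 with the replicate block, 0.030 with DESeq2, 0.018 with limma on log2(TPM + 1), 0.037 without vBM-MSC replicate 1, 0.0497 without A-MSC replicate 2 and 0.0064 without P-MSC replicate 3, which also moved the difference to 4.68, so whether it differed depended on the setting. Copg2 was higher in marrow (0.88 ± 0.09 SE, edgeR adjusted p = 1.2e-05) and lower in vBM-MSCs than in fBM-MSCs (-0.58 ± 0.13 SE, edgeR adjusted p = 0.017), the latter call being lost in edgeR without fBM-MSC replicate 2 (adjusted p = 0.058), without vBM-MSC replicate 2 (0.082) and with only the 2 sites (0.13). Igf2, the growth factor next to H19, did not pass the filter and was at 0.02 to 0.50 in marrow, 0 to 0.02 in A-MSCs and 0 in P-MSCs. Igf2os, Ins2, Th, Phlda2 and Klf14 did not pass it either.

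**Figure D4:**
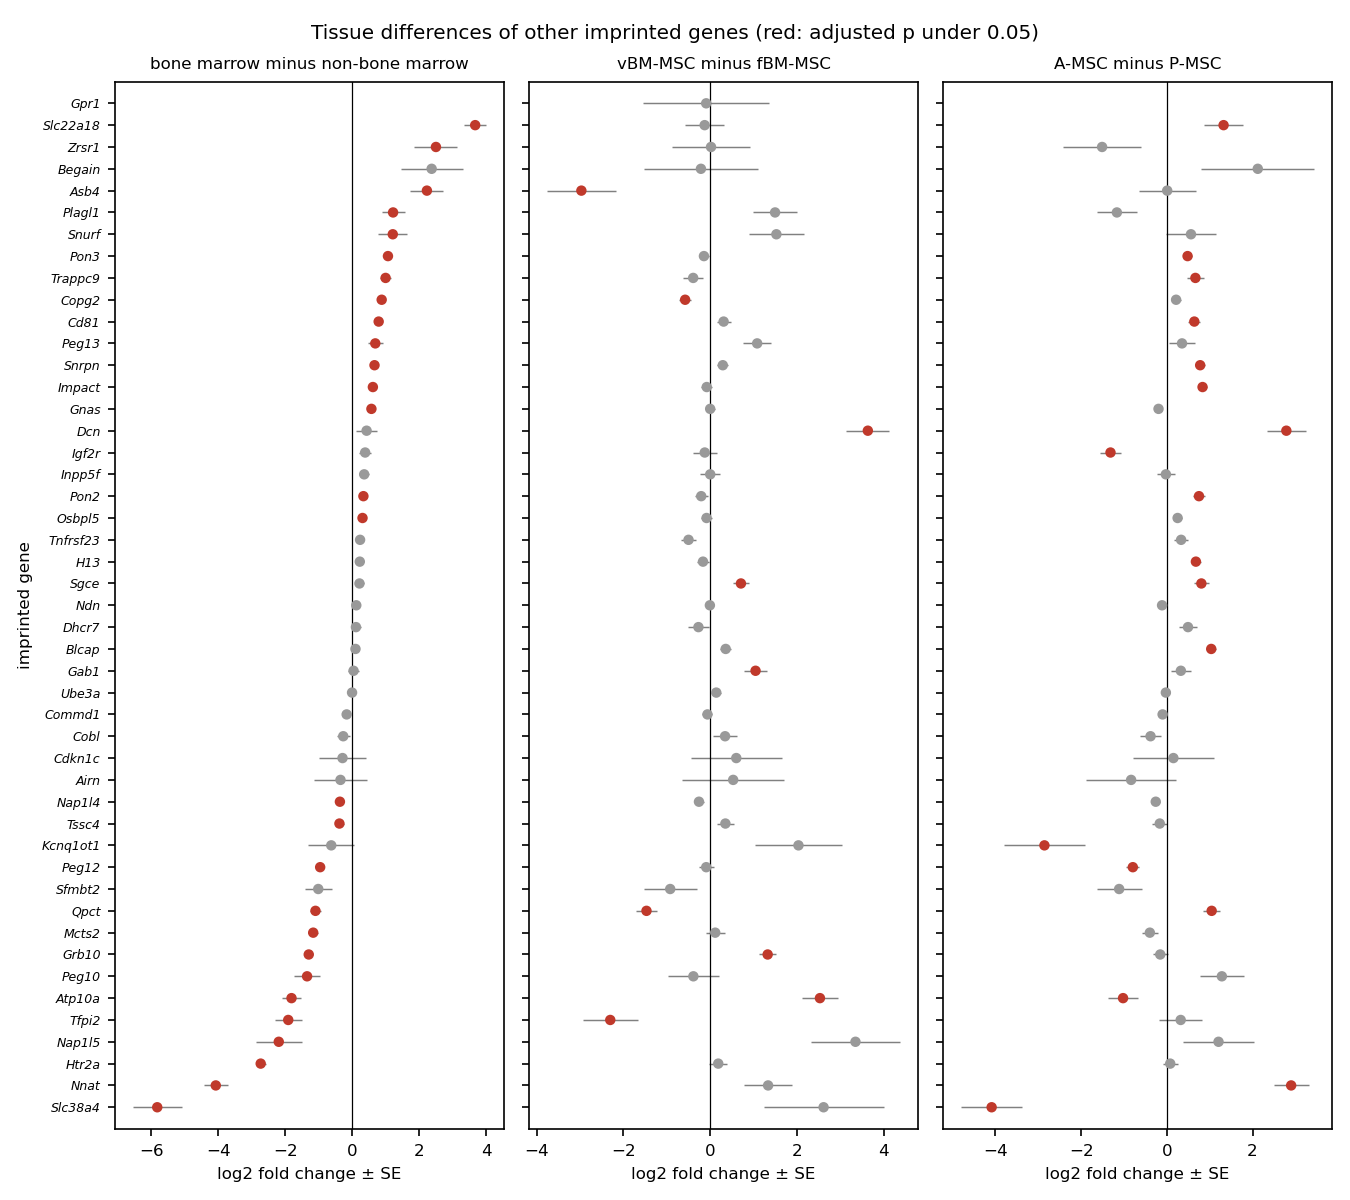
Log2 fold change of 47 other imprinted genes (y axis, ordered by the left panel) for marrow against other tissues, vBM-MSCs against fBM-MSCs, and A-MSCs against P-MSCs (x axes), each point an edgeR estimate with its SE as a bar and red points past an adjusted p of 0.05. Gpr1, with no count in P-MSCs, is left out of the left and right panels, which hold 46 genes each.

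Genes that set or maintain imprints were compared as well. Of 20 such genes 17 passed the filter, and 11 of these differed among the 4 tissues, against the 60.6% of all genes. The 5 with the smallest adjusted p were these. Dnmt1, the maintenance methyltransferase, was at 21.91, 20.61 and 22.31 in P-MSCs and at 2.54 to 7.06 in all other libraries (edgeR adjusted p = 3.1e-06). Uhrf1, which guides Dnmt1 to replicated DNA, was at 48.68 to 56.20 in P-MSCs and at 1.80 to 16.91 elsewhere (edgeR adjusted p = 1.7e-06). Hells, a chromatin remodeller, was at 22.41 to 26.09 in P-MSCs and 0.90 to 8.66 elsewhere (edgeR adjusted p = 0.00014). These 3 genes are also known to be most active in dividing cells. Trim28, the corepressor that zinc finger proteins bring to imprints, was at 58.28 to 65.52 in P-MSCs and 27.40 to 37.14 elsewhere (edgeR adjusted p = 6.8e-05). Zfp57, the zinc finger protein that protects imprints by recruiting Trim28, was lowest in fBM-MSCs, at 0.32, 0.80 and 0.29, against 2.82 and 3.83 in vBM-MSCs, 2.71, 3.02 and 2.73 in A-MSCs and 4.84, 4.92 and 4.81 in P-MSCs (edgeR adjusted p = 0.0004).

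By the likeness of log2(TPM + 1) over the 11 libraries, a different set of genes stood closest to each member. For Dio3 these were Gucy2c (Pearson r = 0.993), Lxn (0.982) and Arsi (0.982). The nearest to H19 were Megf6 (0.971), Podn (0.968) and Zfp365 (0.966). Dlk1 stood nearest to Adamts1 (0.951), the immediate early gene Egr1 (0.950) and Stxbp3 (0.929), Meg3 to Magt1 (0.979), Ier5 (0.975) and Naa20 (0.970), and Rian to Il1rap (0.974), the focal adhesion gene Vcl (0.972) and Cish (0.969). For Mirg they were Sub1 (0.949), Fam188a (0.945) and Serpinb1a (0.925), for Peg3 Igf2bp1 (0.989), Eif3d (0.988) and Nup205 (0.983), and for Mest Hoxb3 (0.948), Zfp93 (0.923) and Aen (0.923). Among the 5 members of the Dlk1-Dio3 locus, r ran from 0.344 for Meg3 and Dio3 to 0.818 for Rian and Mirg. Over all pairs of the 8 members it ran from -0.462 for H19 and Peg3 to 0.860 for Dlk1 and Mest, and was 0.831 for Dio3 and H19 and 0.812 for Meg3 and Mest, which are in different domains. The points share libraries, depth and the tissue differences, and no p is given.

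Markers of other cells were read in the same libraries. The positive MSC markers Itgb1, Cd44, Ly6a and Vcam1 summed to 983 to 2336 TPM, whereas Pecam1, Cd34 and Ptprc summed to 10.3 to 79.2 in fBM-MSCs and 1.19 to 7.87 elsewhere. Cd34, the only one of the 3 to pass the filter, carried the sum in marrow and was lower in vBM-MSCs than in fBM-MSCs (-2.91 log2 difference, edgeR adjusted p = 0.023), while Ptprc was at 0.35 or less in all libraries and Pecam1 at 0.34 or less in all but 1 A-MSC library (3.84). The 6 macrophage genes summed to 36.2 to 49.4 TPM for fBM-MSCs, 21.8 to 42.0 for vBM-MSCs, 15.3 to 24.5 for A-MSCs and 9.05 to 12 for P-MSCs. This sum was carried mainly by Lyz2, and 3 of the 6 passed the filter: Lyz2 was higher in marrow (log2 difference 2.65 ± 0.26 SE, edgeR adjusted p = 9.3e-06), Csf1r, the defining receptor, was lower (-2.24 ± 0.24 SE, edgeR adjusted p = 1.7e-05), and Cd68 had a difference of -0.28 ± 0.30 (SE, edgeR adjusted p = 0.46). Between the marrow sites, Cd68 was lower in vBM-MSCs (-3.06 ± 0.50 SE, edgeR adjusted p = 0.003), at 0.87 and 2.72 against 12.27 to 18.47 TPM in fBM-MSCs, whereas Lyz2 (0.03 ± 0.36 SE) and Csf1r (0.24 ± 0.34 SE) did not pass the test. The defining markers Adgre1, C1qa and C1qb were at 0.34 TPM or less. The epithelial list (22.7 to 48.5) and the mesothelial list (29.1 to 39.2) had their counts mainly in A-MSCs and summed to 3.09 or less elsewhere. The keratins Krt8 and Krt18 carried the first, with the defining Epcam and Cdh1 at 0.41 or less, whereas all 4 mesothelial genes were at 1.02 or more in each A-MSC library. The muscle list was carried by Acta1, with its defining regulators Myod1, Myf5, Pax7 and Myog at 0, and summed to 8.67 to 19.3 in fBM-MSCs, 54.5 and 495 in the 2 vBM-MSC libraries, 710 to 778 in P-MSCs and 856 to 1028 in A-MSCs. Endothelial genes reached 51.5 in 1 A-MSC library, adipocyte genes 17.4 in 1 A-MSC library, and erythroid genes at most 0.13. The part of these cells in the levels above was not tested.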

How the data were processed

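RNA-seq was performed on cultured MSCs of 4 tissues and ATAC-seq peaks were taken as 1 list per tissue. Per the labels and the methods of the study, the authors aligned reads to mm10 with STAR inside RSEM, and deposited expected counts per gene and TPM per library. The ATAC-seq reads were trimmed by the authors with Trim Galore, aligned with Bowtie, cleared of duplicates with Picard and shifted for the Tn5 insertion, and peaks were called with MACS2 on pooled samples; the deposited fold enrichment (a ratio to the background) and −log10 q describe each summit. The position of the summit, another deposited value, is an offset from the region start. Tool versions are not given in the sources used here, and the deposited FPKM were not used.

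The expected counts were rounded, scaled by TMM and fitted over all 4 tissues with edgeR 4.0.16 quasi-likelihood in R 4.3.3, for the 12509 of 24411 genes whose CPM reached 1 in 2 or more libraries. Calls had a Benjamini-Hochberg adjusted p under 0.05 over all genes. limma 3.58.1 on log2(TPM + 1) and DESeq2 1.42.0 were alternatives. On simulated data with 200 of 12509 genes changed 4-fold, edgeR recovered 86% of them for marrow against the other tissues, with 9.47% of its calls false, 76.5% between the 2 marrow sites (4.97% false) and 81% for A-MSCs against P-MSCs (4.71% false). The fit of the data called far more genes, 5901 of 12509 for marrow against the other tissues, so these rates need not hold for it. Depth was 19569650 to 40517739 expected counts. No 2 libraries of a tissue agreed within counting noise (lowest chi-square per degree of freedom 15.8). Which library came from which mouse is not stated, so p-values measure the spread between these libraries. A bound for a tissue at 0 was set at 3 counts over its libraries, for counting error only.

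The members and gene lists were chosen with earlier results of these data known. Named in the text were all members, tested genes of a list of their neighbours, for each comparison the 5 called imprinted genes of largest change whose groups do not overlap, the 5 of smallest p among imprint factors and thyroid hormone genes, Dio2 and Zfp57, and the 3 genes most alike each member. A gene that this rule names is not reported here. Other neighbours and the accessible regions were named after their values were seen. Promoters and start sites came from RefSeq on GRCm38.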

Additional observations from a re-analysis of the deposited data

How the results depend on the processing

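The number of other imprinted genes that differed between vBM-MSCs and fBM-MSCs, 9, was 3 when only the libraries of these 2 sites were fitted, all 3 among the 9, and it ranged from 5 (without vBM-MSC replicate 1) to 10 when each library was left out in turn. Over the 4 tissues the count of 37 ranged from 31 to 37, for marrow against the other tissues the count of 29 from 25 to 31, for A-MSCs against P-MSCs the count of 19 from 15 to 20, for imprint factors the count of 11 from 9 to 13 and for thyroid hormone genes the count of 8 from 6 to 10. With a member promoter counted once for each tissue where it passed the threshold, the 4 lists together gave 8 such cases, from Meg3, Dio3 and Peg3. That number became 14 with all listed summits and 5 with a −log10 q of at least 20. The 97 summits between Dlk1 and Dio3 became 162 and 48 in the same order. The log2 difference of Mest between marrow and the other tissues, -0.06, changed sign to 0.24 without vBM-MSC replicate 1, and to 0.04 or 0.02 when fBM-MSC replicate 1 or 2 was left out, and reached -0.60 without vBM-MSC replicate 2. The cause was not tested. Of 36 counts recomputed with another setting, 31 stayed within 1.5 times of the reported one.

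Libraries of the same replicate number in different tissues shared their deviations weakly at most (r of -0.04 to 0.16 over 15 pairs, 1 of them over 0.1). By the mean r with the libraries of each number in the other tissues, 6 of 11 libraries correlated best with their own number. These values do not settle whether a number marks 1 mouse. With the replicate block, the counts were 32 over the 4 tissues, 27 for marrow against the others, 11 between the marrow sites, 18 for A-MSCs against P-MSCs, 12 for imprint factors and 7 for thyroid hormone genes. Kcnq1ot1 lost its call there (edgeR adjusted p = 0.065). Mirg, H19 and the A-MSC Dio3 rest on few counts, and accessibility on unreplicated lists.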

Other observations

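Dio3 inactivates thyroid hormone, and 12 other genes of thyroid hormone handling were read beside it, of which 10 passed the filter on low counts and 8 differed among the 4 tissues, against 60.6% of all genes. Dio2, the deiodinase that activates the hormone, was at 1.24 and 0.46 TPM in vBM-MSCs, 0.21 to 0.32 in P-MSCs, 0.01 to 0.07 in fBM-MSCs and 0 in A-MSCs (edgeR adjusted p = 0.00099), so that both deiodinases had their highest level in vBM-MSCs. It was at least 113-fold higher in vBM-MSCs than in A-MSCs, or 64.0-fold without vBM-MSC replicate 1. Dio1 was listed at 0 throughout. Thrb, a nuclear thyroid hormone receptor, was at 2.26, 4.28 and 5.07 in fBM-MSCs and 0.47 to 1.44 elsewhere (edgeR adjusted p = 0.00055), whereas Thra, the other receptor, was at 4.09 and 3.11 in vBM-MSCs, 1.51 to 2.44 in fBM-MSCs and 0.84 to 1.35 elsewhere (4 tissues, edgeR adjusted p = 0.0082, and 0.062 without vBM-MSC replicate 1). The Thra difference between vBM-MSCs and fBM-MSCs, 0.93 ± 0.43 (SE) on the log2 scale, did not pass the test (edgeR adjusted p = 0.18). With limma on log2(TPM + 1) it was called, so the result depended on the method. The transporter gene Slc16a10 was lowest in fBM-MSCs, at 0.66 to 0.77 against 1.34 to 2.67 (edgeR adjusted p = 0.0016).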
